A study of Mus musculus with 360 samples.

Results

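Among C1498 cells heated at 45 °C, 15 carried a library made up largely of Rn45s, the ribosomal RNA precursor, and these dominated cells are compared here with the other heated cells. A cell counted as dominated where Rn45s held over 30% of all its UMIs (unique molecular identifiers, which count molecules). This chose 15 of the 296 heated cells picked at 5, 10 or 15 h, out of 360 cells in the series, and left 281 other heated cells. C1498 is a mouse acute myeloid leukemia line. The cells had been warmed for 10 min, filmed, and collected one by one by an automated picking instrument (ALPS) at 5, 10 or 15 h after heating ended. A further 13 heated cells from 1 h and 51 unheated cells served as background. The unheated cells were 45 cells of the 37 °C control arm, at 1 h before and 1, 5, 10 and 15 h after, and 6 cells of the 45 °C arm before heating. No label ties a cell to a culture, so the cells of a group count as 1 sample of 1 line, and none of the differences below carries a p-value. The dominated cells were chosen by their measured Rn45s share, and so its own values are given only to describe them. Single cells are named by their time and number, as 5h_86. All other genes are given as CPM, the share of a cell's UMIs without Rn45s, times 1000000.

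Rn45s is transcribed by RNA polymerase I in the nucleolus and is cut into the RNAs of both ribosomal subunits, which make up most of the RNA of a growing cell. These RNAs lack the long poly(A) tail of messenger RNA, and libraries primed with a stretch of T, as here, hold only part of them. RNA polymerase III makes a different set of short RNAs, among them the RNA parts of RNase P and RNase MRP, enzymes that process transfer RNA and the ribosomal precursor.

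Among the short RNAs whose share differed most between the classes, Snora81 and Rmrp are shown first, as the GENCODE annotation of GRCm38 gives their transcripts, 5′ to 3′, with the longest run of A in capitals. Snora81, a small nucleolar RNA, lies within Eif4a2 at chr16:23110756-23110933 (plus strand). Rpph1, the RNase P RNA, lies at chr14:50807449-50807767 (minus strand), where the gene Ccnb1ip1 overlaps it. Rmrp, the RNase MRP RNA, lies at chr4:43492788-43493058 (minus strand) and overlaps Ccdc107. The longest runs of A in Snora81, Rpph1 and Rmrp are 4, 2 and 3. Of 19566 annotated transcripts of up to 400 bases, 56.5% have a run of 4 or more on their own strand. Rpph1 is not printed because of its length.
Snora81: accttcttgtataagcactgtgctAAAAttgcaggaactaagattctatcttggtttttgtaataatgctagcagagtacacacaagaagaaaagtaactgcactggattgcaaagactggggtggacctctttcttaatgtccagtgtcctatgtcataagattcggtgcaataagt
Rmrp: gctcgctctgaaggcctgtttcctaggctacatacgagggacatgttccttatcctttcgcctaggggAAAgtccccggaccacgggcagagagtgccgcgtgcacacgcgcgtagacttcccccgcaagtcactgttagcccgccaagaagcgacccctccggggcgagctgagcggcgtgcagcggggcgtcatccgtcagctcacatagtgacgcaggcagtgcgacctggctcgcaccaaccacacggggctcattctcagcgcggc

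The share that chose the cells is made of Rn45s UMIs and UMIs of all other genes, and both are given here as a description. Rn45s counts ran from 758 to 6987 UMIs in dominated cells (median 4184) and from 157.5 to 16330 in other heated cells (median 3472), and no dominated cell lay above the highest other cell. The unheated cells had a median of 4195. The 11 other heated cells whose UMIs of other genes fell within the range of the dominated cells had 157.5 to 2507 Rn45s UMIs (median 975). UMIs of all other genes ran from 302 to 9118 in dominated cells (median 1171) against 3174 to 105866 in other heated cells (median 24741). Of the 15 dominated cells, 10 lay below every other heated cell by this count. The lowest of the 51 unheated cells stood at 7135 UMIs and their median at 31292. Less RNA per cell and fewer molecules captured from a cell cannot be told apart in these counts.

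**Figure D1:**
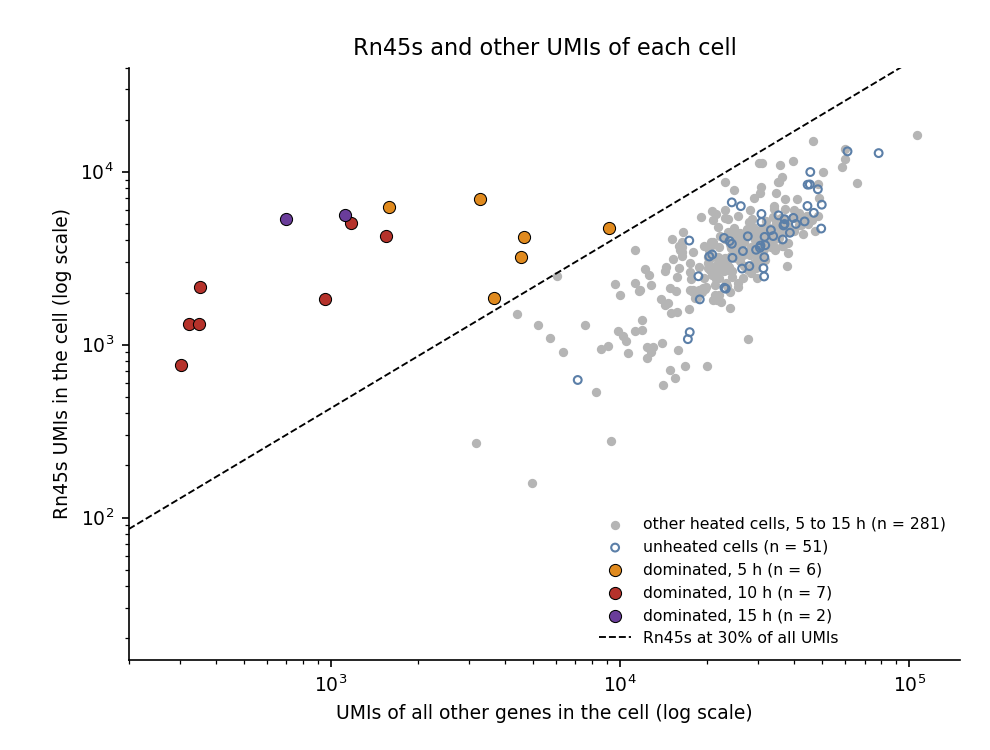
Each point is 1 cell: Rn45s UMIs (log scale) against UMIs of all other genes (log scale), with the dashed line where Rn45s makes up 30% of the library. The 15 dominated cells sit left of the line at Rn45s counts of 758 to 6987, within the range of the other heated cells.

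The share of Rn45s that defines the class ran from 33.6 to 88.3% (median 73.2%), against 2.92 to 29.3% (median 11.8%) in other heated cells and at most 21.4% in unheated cells. Within the class the cells fell into 2 groups. At 5 h, 4 cells held 33.6, 34, 41.5 and 47.4% Rn45s, and the other 11 held 65.7 to 88.3%. Those 11 were 2 cells at 5 h, all 7 at 10 h and both at 15 h. The cells just inside the 30% limit were at 33.6 and 34%, those just outside at 29.3 and 27.4%, and all of these were 5 h cells. Dominated cells made up 2.69% of the cells at 5 h (6 cells, exact 95% interval 0.994 to 5.76%), 7 of 52 at 10 h (13.5%, 5.59 to 25.8%) and 2 of 21 at 15 h (9.52%, 1.17 to 30.4%). None were found among 13 heated cells at 1 h, where the exact interval reaches 24.7%, or among 51 unheated cells, where it reaches 6.98%. Of the latter only 6, 6 and 11 were 37 °C cells of 5, 10 and 15 h, with upper limits of 45.9, 45.9 and 28.5%. These intervals and limits cover counting error only. The 4 cells under 50% supplied 65.2% of the 33641 UMIs of other genes in the whole class, and the 5 h cells 79.7%. Sums over the class therefore rest mainly on them. Values of the 11 cells over 50%, a limit set after the gap had been seen, are given below for the genes and lists that the results turn on, against the same 281 other cells unless stated.

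Fewer genes were seen in the dominated cells, and a few RNAs filled much of what was left. They showed at most 2829 genes (median 689), against 1572 to 7653 (median 4933) in other heated cells. Thinned to 1000 UMIs without Rn45s, the 9 dominated cells deep enough had a median of 574 genes (320 to 730), while the 281 others had 659 (551 to 763). The 5 of these 9 from the cells over 50% had a median of 481, and the 4 from the cells under 50% one of 650. At 2000 UMIs 5 dominated cells remained, with a median of 1110 against 1107, so most of the class could not be compared at that depth. The 4 of them under 50% had 630 to 1247 genes and the 1 over 50% had 584, against 924 to 1307 in the others. The 10 most abundant genes held 7.70 to 76.4% of the UMIs without Rn45s in dominated cells (median 28.7%) and 5.36 to 31.1% (median 7.97%) in other cells.

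Noncoding RNAs, by RefSeq gene type and without Rn45s, took a larger part of the dominated cells. They held 3.79 to 57.4% of the remaining UMIs (median 16.7%), against 1.87 to 22.7% in other heated cells (median 2.90%) and 1.92 to 2.91% in unheated cells. All 15 dominated cells lay above the median of the others, and 3 lay above the highest of them. That highest cell, cell 15h_4, stood apart from its class, whose next value was 7.90%. In summed counts the log2 ratio of dominated over other cells was 2.24 (95% interval 2.20 to 2.28, from an exact conditional binomial test of the sums, for counting error only). It was 2.12 at 5 h, 2.50 at 10 h and 3.19 at 15 h, so the direction was the same at each time. The 11 cells over 50%, set against all the rest, gave 3.32. Against the 11 other heated cells whose depth lay within the range of the dominated cells it was 1.499. Cell 15h_4 was 1 of those 11. By gene type, ribosomal RNA genes other than Rn45s, among which RefSeq lists Rn4.5s, held 8.23% of the dominated and 0.57% of the other UMIs. Rn4.5s supplied 2658 of the 2768 UMIs of this type in dominated cells, 1639 of them in cell 5h_86. Small nucleolar RNAs held 0.508 and 0.0332%, microRNA genes 2.80 and 0.388%, and long noncoding RNAs 1.45 and 0.703%. Mir6236 supplied 848.5 of the 941 microRNA UMIs in dominated cells. Protein-coding genes held 85.2 and 96.8%.

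Mir6236, annotated as a microRNA gene, separated the classes almost completely as a share of the UMIs without Rn45s. In UMIs per cell it did not, with medians of 48 in dominated and 61.5 in other cells. It stood at 3976 to 127656 CPM in dominated cells (median 57608), against 0 to 7943 CPM in other heated cells (median 2453). In 14 of 15 dominated cells it was above every other heated cell. The exception was cell 5h_35. Of the 6009 genes with at least 20 CPM over all cells, 9, or 0.15%, were above every other cell in at least 8 dominated cells. In the summed counts Mir6236 was at 25222 CPM in dominated and 2536 CPM in other cells, a log2 ratio of 3.32 (3.21 to 3.41). The ratio was 2.19 at 5 h, 5.32 at 10 h and 5.25 at 15 h. It was 4.53 in the 11 cells over 50% and 1.58 in the 4 cells under it.

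Lars2, which encodes the mitochondrial leucyl-tRNA synthetase and is known to gather reads of ribosomal RNA, showed the same order. Its level was 2540 to 31991 CPM in dominated cells (median 13718) and 0 to 3629 CPM in others (median 608), and 13 of 15 dominated cells exceeded every other cell. The summed log2 ratio was 3.85 (3.69 to 4.01), and within times it was 3.44, 5.14 and 5.84. It was 4.69 in the cells over 50% and 3.08 in those under it. Of the remaining genes past that mark, 6 were copies of a short ribosomal RNA gene (Gm22291, Gm25018, Gm25212, Gm26391, Gm22109 and Gm23284). Their values were identical, so the copies cannot be told apart and each is uncertain: 545 CPM in dominated against 31.8 CPM in other cells. The last was Snora81, with 951 against 65.1 CPM (log2 ratio 3.89, 3.30 to 4.39). It rested on 32 UMIs in 12 dominated cells, up to 8029 CPM in 1 cell, and its counts cannot be separated from those of Eif4a2 where the reads of host and guest overlap.

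Counted against Rn45s instead of against the rest of the library, Mir6236 and Lars2 had like medians in both classes when the times were pooled, but not within times. Rn45s is what chose the cells, so these values are a description only. Per 1000 Rn45s UMIs, dominated cells held 5.6 to 30.1 Mir6236 UMIs (median 16.2), other heated cells 0 to 41.5 (median 17.3) and unheated cells 5.45 to 22.8 (median 17). At 5 h all 6 dominated cells (5.6 to 16.2) lay below the median of the other 5 h cells, 17.4. At 10 h all 7 (18.97 to 30.1) lay above that of the other 10 h cells, 18.5. Both 15 h cells lay within the range of the others of that time. Lars2 had pooled medians of 4.59 in dominated, 4.15 in other and 3.23 in unheated cells. By time its medians were 8.96 against 4.61 at 5 h, 3.79 against 3.41 at 10 h and 4.7 against 2.48 at 15 h. In UMIs per cell Mir6236 had a median of 48 in dominated and 61.5 in other cells, and Lars2 17 and 15.

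**Figure D2:**
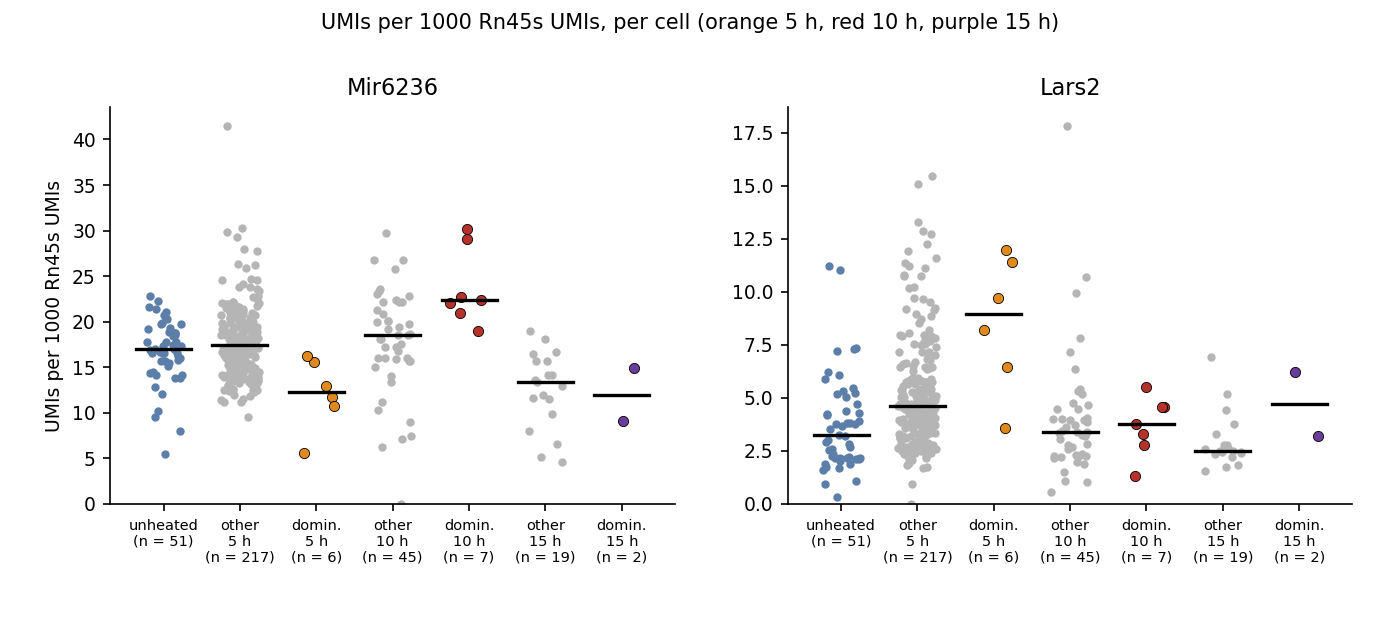
UMIs of Mir6236 and Lars2 per 1000 Rn45s UMIs in unheated cells and, at each time, in other heated (grey) and dominated cells (coloured), 1 point per cell, bars at the medians, linear axes from 0. For Mir6236 the dominated median is below that of the others at 5 h (12.3 against 17.4) and above it at 10 h (22.4 against 18.5).

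The polymerase III list held more in the dominated cells as well, with 4 of 4 measured members at least 2-fold higher. Over all measured genes that share was 14.6% (877 of 6009), with 21% (1260) at least 2-fold lower and a median log2 ratio of -0.18. Rn4.5s, a short RNA of rodents that can pair with polyadenylated RNA, stood at 1047 to 499652 CPM in dominated cells (median 21575) and at 0 to 198069 CPM in other cells (median 2335). The ranges overlapped, and 2 dominated cells lay above the highest other cell. Its summed log2 ratio of 3.84 (3.784 to 3.898) rested partly on cell 5h_86, which held 499652 CPM. Without that cell the ratio was 2.61. It was 5.13 in the cells over 50% and 1.73 in those under it. Against the 11 other cells of like depth it was 1.72, but 1030 of their 1663.5 Rn4.5s UMIs came from cell 15h_4. That cell held 198069 CPM, against a median of 9825 CPM over the 11. Other heated cells at 5 h were themselves high in Rn4.5s, with a median of 3778 CPM against 214.5 at 10 h and 184.6 at 15 h, while unheated cells had a median of 190.7 CPM. Within times, the median over dominated cells was 37806 CPM at 5 h, 9047 at 10 h and 77624 at 15 h. At 10 h all 7 dominated cells were above the median of the other cells and 5 were above every one of them.

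Rpph1 had UMIs in 12 of 15 dominated cells, at 0 to 27208 CPM (median 2095), against 0 to 2579 CPM in other cells (median 75.1). The summed log2 ratio was 3.92 (3.63 to 4.19), and 7 dominated cells were above every other cell. The ratio was 5.27 in the cells over 50% and 1.43 in those under it. In unheated cells Rpph1 stood at no more than 164.4 CPM. Rmrp had 17 UMIs in 6 dominated cells, which came to 505 CPM against 75.9 CPM in other cells (2.77, 1.94 to 3.43, and 4.03 over 50%). It was 2.09 without cell 15h_14, which held 6245 CPM. Vaultrc5, an RNA of the vault particle, had 22 UMIs in 7 cells, 654 CPM against 35.8 CPM (4.22, 3.49 to 4.82, and 5.46 over 50%).

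**Figure D3:**
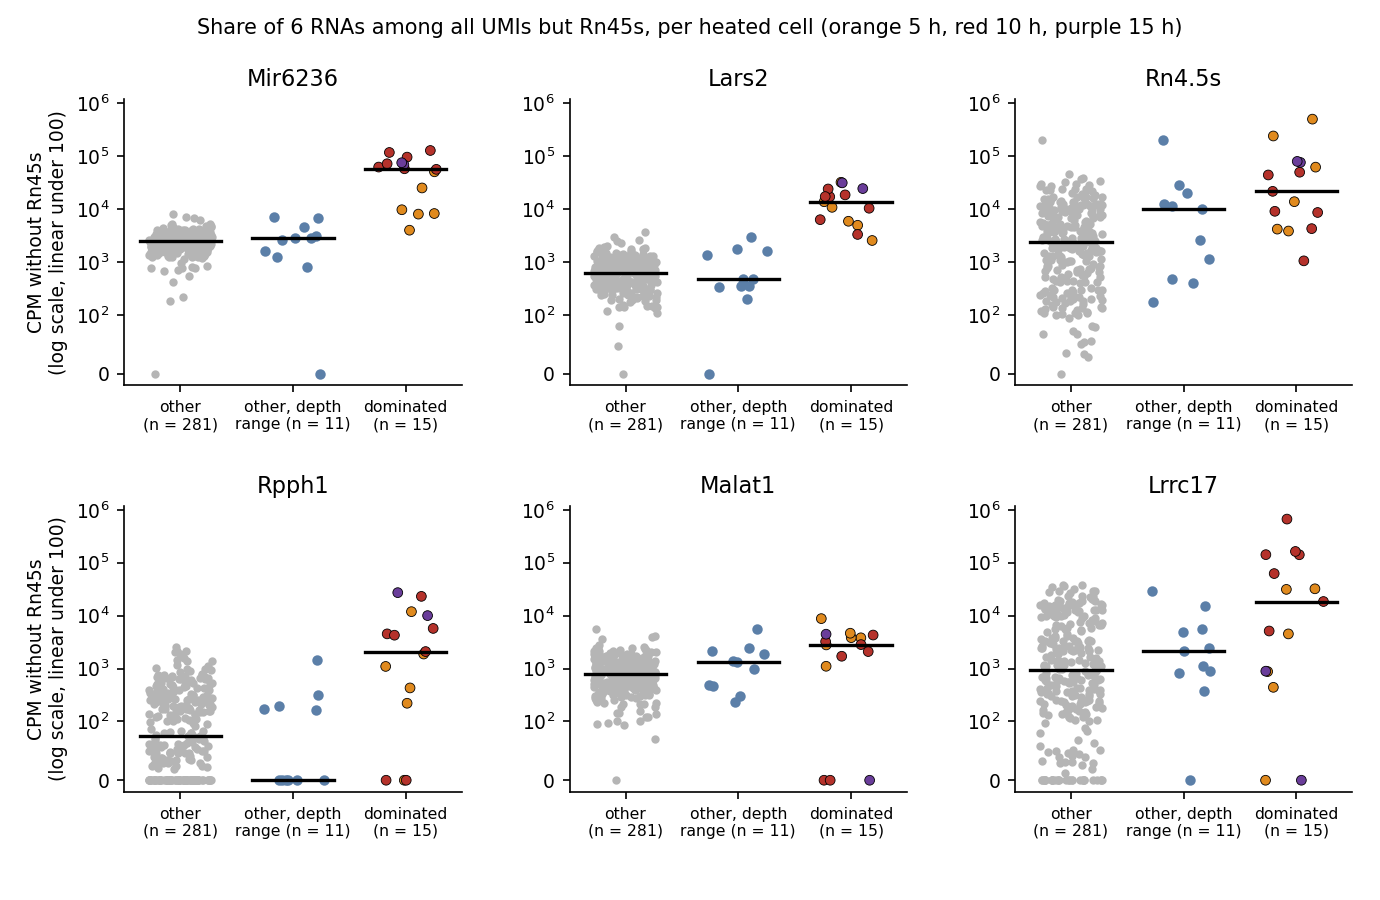
CPM without Rn45s of 6 RNAs in each of 281 other heated cells, the 11 of them in the depth range of the dominated cells, and 15 dominated cells (log scale, linear under 100), with bars at the medians. Mir6236 and Lars2 show almost no overlap between dominated and other cells, whereas Rn4.5s, Rpph1, Malat1 and Lrrc17 overlap widely.

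Among RNAs that stay in the nucleus, Malat1 was also higher as a share, while Neat1 was hardly seen. Malat1, a long noncoding RNA of nuclear speckles, stood at 0 to 8782 CPM in dominated cells (median 2837) and at 0 to 5577 CPM in other cells (median 802). It had UMIs in 12 dominated cells, each of them above the median of the others. The summed log2 ratio was 1.84 (1.55 to 2.10), and 1.91, 1.74 and 1.498 within times. It was 1.98 in the cells over 50%. Malat1 belongs to a list of 19 nuclear RNAs and hosts of small nucleolar RNAs, of which 15 were measured, 5 at least 2-fold higher and 2 at least 2-fold lower. Over all measured genes 14.6% were at least 2-fold higher and 21% lower. The list sum had a log2 ratio of 0.99 (0.78 to 1.18, and 1.01 over 50%), and 13 of 15 cells were above the median of the others. Gas5, a host of small nucleolar RNAs, was at 922 against 686 CPM (0.45, -0.13 to 0.93). Snhg1, another such host, was lower with each single cell left out (-2.13 to -0.96). Neat1, the RNA scaffold of paraspeckles, had 7 UMIs, all in cells 5h_194 and 5h_207, and none in the cells over 50%.

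The remaining genes that the rule for named genes picked on the higher side were messenger RNAs, each on few UMIs. Son, a large protein of nuclear speckles, had 34 UMIs in 10 cells, which gave 1011 against 297 CPM (1.79, 1.23 to 2.26). Against the other cells of like depth its ratio was 0.88, under 2-fold. Ankrd11, a chromatin regulator, had 41 UMIs in 9 cells (1219 against 350 CPM, 1.82, 1.32 to 2.24). It was 2.85 in the cells over 50%, 0.70 in those under it and 0.94 against like depth. Phip, a chromatin reader, had 13.5 UMIs (2.12, 1.25 to 2.88). Utp3, a factor of ribosome assembly, had 15.5 UMIs in 5 cells, and its ratio of 1.97 was 0.95 without cell 5h_207. Piezo1, an ion channel opened by membrane stretch, had 9 UMIs in 6 cells (2.43, 1.21 to 3.29). Neither of the last 2 was higher at each time: Piezo1 had no UMI in the 7 dominated cells at 10 h and Utp3 none in the 2 at 15 h, where only the added 0.5 UMI gives a ratio above 0. Srrm2, a speckle scaffold named after its values were seen, had 41.5 UMIs in 8 cells (1234 against 438 CPM, 1.51, 1.03 to 1.95).

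Protein-coding genes with long transcripts held a larger share of the dominated cells. Those with a longest annotated transcript of at least 8000 bases held 7.06% in dominated and 4.61% in other cells, of the UMIs of protein-coding genes without ribosomal proteins, Lars2 and Lrrc17 (log2 ratio 0.62, 0.54 to 0.69). Those of 1000 to 2000 bases held 17.96 and 21.4% (-0.25, -0.30 to -0.20). In the other cells of like depth the shares of these length classes were 4.95 and 20.2%. The ratios did not follow length throughout, since transcripts under 1000 bases were at -0.19 (-0.27 to -0.12). By genomic span, genes of at least 150000 bases held 2.79 and 2.02%, with a log2 ratio of 0.47 (0.34 to 0.59).

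Among 492 abundant genes with at least 300 CPM over all cells, a filter set after the values were seen, more were lower than higher in the dominated cells. Of these, 10, or 2.03%, were at least 2-fold higher and 84, or 17.1%, at least 2-fold lower, with a median log2 ratio of -0.40. In the 11 cells over 50%, 15 (3.05%) were higher and 282 (57.3%) lower, with a median of -1.26. Low genes are less safe here: in so small a sum the added 0.5 UMI alone lifts their ratio, most of all at 10 h (5002 UMIs) and 15 h (1820 UMIs). Gene counts within single times are therefore not given.

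Of the genes picked on the lower side, Ppia encodes the prolyl isomerase cyclophilin A. It stood at 0 to 3082 CPM in dominated cells (median 305) against 525.6 to 5961 CPM in other cells (median 3098), and 8 cells were below every other cell. The summed log2 ratio was -1.66 (-2.22 to -1.19), and it was -1.55, -1.94 and -2.92 within times, the last with no UMI in the dominated cells. It was -2.12 in the cells over 50% but -0.86, short of 2-fold, against the other cells of like depth. Rpl10, a protein of the large ribosomal subunit, had a median of 548 against 3529 CPM, with 13 of 15 cells below every other cell (-1.13, -1.56 to -0.76, and -2.68 over 50%). Ran, the GTPase of nuclear transport, had a median of 0 against 1686 CPM, with 11 cells below every other cell (-1.43, -2.14 to -0.84, and -2.32 over 50%). Against like depth Ran was at -0.89, also short of 2-fold. Atp5b, a subunit of the mitochondrial ATP synthase, had 215.2 against 1892 CPM, with 9 cells below (-1.46, -2.19 to -0.92, and -2.18 over 50%). Ppia and Atp5b had UMIs in 8 dominated cells each, Rpl10 in 9 and Ran in 6. A cell without a UMI of these genes lies below every other heated cell, since all of those held some. As 10 dominated cells were also shallower than every other heated cell, these counts of cells are a description only. How many of all genes show such counts was not determined. Cct2, a subunit of the cytosolic chaperonin, had 4 UMIs in 2 cells, which gave 118.9 against 650 CPM (-2.28, -4.33 to -1.09, and -3.93 over 50%). H3f3b, which encodes histone H3.3, had 8 UMIs in 3 cells (-1.83, -3.13 to -0.94, and -4.39 over 50%). Neither Cct2 nor H3f3b had a UMI in the 11 cells over 50%, so their ratios there rest on the added count. In those cells 3 UMIs would come to 257 CPM, against 650 CPM for Cct2 and 899 CPM for H3f3b in other cells. Prelid1, a mitochondrial lipid transfer protein, had 4.5 UMIs in 5 cells (-2.02, -4.22 to -0.98).

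Several lower genes rested on almost no UMIs. Ppib, a prolyl isomerase of the endoplasmic reticulum, and Impdh2, an enzyme of guanine nucleotide synthesis, had 1 UMI each over the 15 cells. Their log2 ratios were -2.98 (-8.87 to -1.09) and -2.83 (-8.72 to -0.93). Tcf7, a transcription factor of T cells, had 3 UMIs in 1 cell (-2.34, -4.84 to -1.01). Ikzf1, a transcription factor of lymphoid cells, had 0.5 UMI against 193.4 CPM in other cells, and only the upper end of its interval is defined (-0.82). Rps15a-ps6, a processed copy of a ribosomal protein gene whose counts may belong to its parent, had 4.34 UMIs in 5 cells (-1.89, -4.04 to -0.81).

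**Figure D4:**
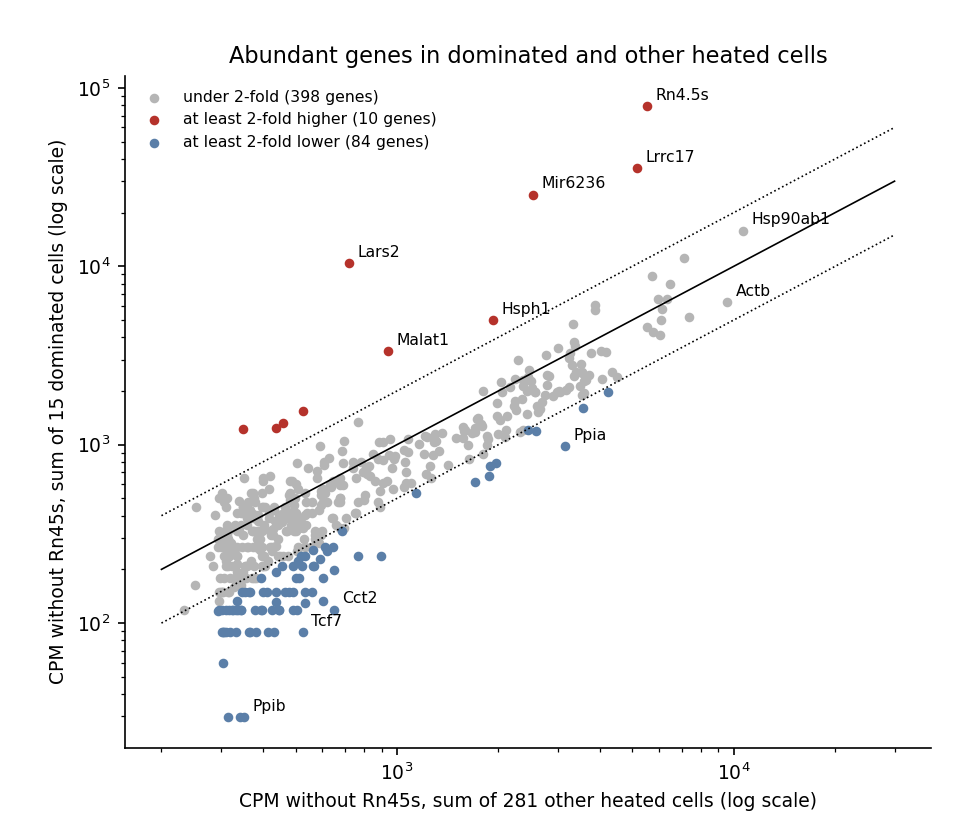
CPM without Rn45s of 492 abundant genes, sum of 15 dominated cells against sum of 281 other heated cells (log scales), with dotted lines at 2-fold. Of these genes 10 are at least 2-fold higher (red) and 84 at least 2-fold lower (blue).

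Lists of the basic cell machinery had summed ratios below 0, though several held no more lower members than the 21% of all measured genes that were at least 2-fold lower. The chaperonin CCT folds actin and tubulin. Its 8 genes summed to 0 to 6075 CPM in dominated cells (median 457) and to 1923 to 7553 CPM in other cells (median 5003), and 13 of 15 cells lay below every other cell. That count includes shallow cells without a UMI of the list, as for the single genes above. The other 2, cells 5h_35 and 5h_194, were at 6075 and 5758 CPM, above the median of the others. All 8 members were measured, none at least 2-fold higher and 2 lower. The log2 ratio of the sums was -0.82 (-1.13 to -0.54), and -2.65 (-3.86 to -1.80) in the cells over 50%. The nuclear genes of the respiratory chain had a median of 5383 against 18658 CPM, with 10 cells below every other cell and 12 of 43 measured genes at least 2-fold lower, none higher (-0.61, and -1.92 over 50%). Proteasome genes had a median of 3568 against 8350 CPM, with 10 of 29 genes lower and none higher (-0.75, and -1.13 over 50%). In the respiratory chain and proteasome lists the part that was lower was above the 21%, while the 2 of 8 CCT genes were near it.

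Ribosomal proteins, the largest list, had a median of 143762 CPM in dominated and 250039 CPM in other cells. Of 15 dominated cells, 14 lay below the median of the others. The exception was cell 5h_187, at 475278 CPM, above every other cell. In that cell 37.8% of the UMIs without Rn45s were in values that are not whole numbers, against a median of 17.1% in other cells. Cell 5h_129 also had 37.8%, with ribosomal proteins at 144432 CPM. Of 79 members, 4 were at least 2-fold lower and none higher, fewer than the 21% and 14.6% of all measured genes. The ratio was -0.26 (-0.29 to -0.23) in all, 0.00 in the 4 cells under 50% and -0.93 (-1.00 to -0.86) in the 11 over it. Within the list the members differed. Rpsa, a protein of the small subunit, was seen in all 15 cells and stood at 11058 against 7124 CPM (0.64, 0.48 to 0.78), while Rplp1, of the stalk, was at 5222 against 7352 CPM (-0.49, -0.71 to -0.28).

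Glycolysis and actin genes followed the same split within the class. Glycolysis genes had medians of 2135 against 6307 CPM. The summed ratio was -0.22 (-0.44 to -0.02) over the class but 0.28 in the cells under 50% and -2.35 over it. Of 15 measured glycolysis genes, 1 was at least 2-fold higher and 3 lower, near or below the 14.6% and 21% of all measured genes. Gapdh, a glycolytic enzyme, had UMIs in all 4 cells under 50%, at up to 2540 CPM, and in 2 of the other 11. At 10 h it had none in any of the 7 dominated cells, while the 45 other cells of that time stood at 520 to 2740 CPM. Actin cytoskeleton genes had medians of 10999 and 23158 CPM (-0.53, and -1.80 over 50%), with 2 of 19 measured genes lower, under the 21% of all, and none higher. Actb stood at 0 to 13599 CPM (median 3082) in dominated and at 2395 to 19845 CPM (median 9332) in other cells. Actg1, the gamma actin, was at 788 against 1968 CPM (-1.29, -1.96 to -0.80). Elongation and initiation factors of translation summed to a ratio of -0.39 (-1.04 over 50%), with 1 of 16 genes at least 2-fold lower and none higher. Over the whole class the ratios of ribosomal proteins, glycolysis and translation factors were no lower than -0.40, the median of the 492 abundant genes.

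**Figure D5:**
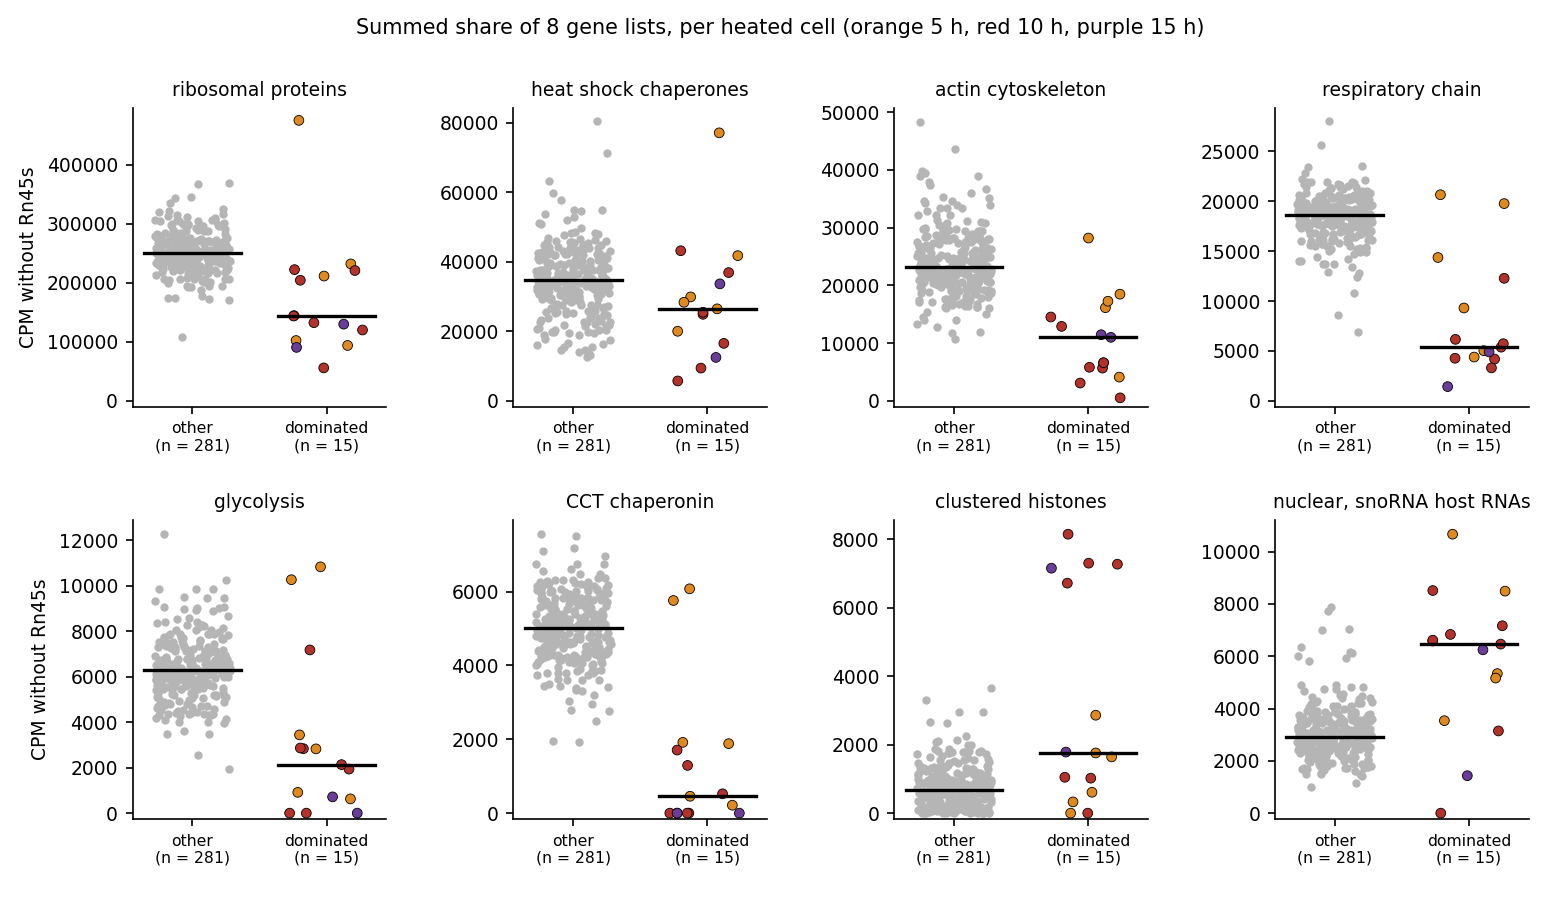
Summed CPM without Rn45s of 8 gene lists in 281 other heated and 15 dominated cells, 1 point per cell, bars at the medians, linear axes. The CCT chaperonin median is 457 CPM in dominated and 5003 CPM in other cells. The lists of clustered histones and of nuclear RNAs and hosts of small nucleolar RNAs stand higher in the dominated cells.

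The heat shock chaperones, whose genes the heat shock factor induces, did not differ in 1 direction. The list summed to 5731 to 77043 CPM in dominated cells (median 26452) and to 12617 to 80445 CPM in other cells (median 34665), and 4 of 15 dominated cells were above the median of the others. The summed log2 ratio was 0.25 (0.17 to 0.32), but -0.48 (-0.65 to -0.31) in the cells over 50%, -0.27 with every cell weighted equally and -0.33 without cell 5h_194. Of 27 measured members, 2 were at least 2-fold higher and 2 lower, below the 14.6% and 21% of all measured genes. Hsp90ab1 was seen in all 15 cells, at 2866 to 29280 CPM (median 11450) against 2062 to 38364 CPM (median 10641) in other cells. Its ratio was 0.57 (0.45 to 0.70), and unheated cells had a median of 5455 CPM. Hsp90aa1, the inducible form, was at 8834 against 5728 CPM (0.63, 0.45 to 0.79). Hsph1, a partner of Hsp70 likewise named after its values were seen, had a summed ratio of 1.37 (1.15 to 1.59), but -1.49 in the cells over 50%. It stood at 13489 and 7510 CPM in cells 5h_194 and 5h_35 and had no UMI in 8 of the 15 cells. Chordc1, a partner of Hsp90, had 11 UMIs in 3 cells (1.72), and at -0.03 without cell 5h_194.

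Integrated stress response genes, which ATF4 drives, had 4 of 22 members at least 2-fold higher and 6 lower, near the 14.6% and 21% of all measured genes, with a summed ratio of -0.58 (-0.87 to -0.32) and -1.30 over 50%. Phgdh, which starts serine synthesis, was at 208.1 against 563 CPM (-1.34, -2.75 to -0.39). Oxidative and metal stress genes had none of 14 higher and 7 lower, more than the 21% (-0.90, -1.22 to -0.62, and -2.36 over 50%). Of these, Sod1, the cytosolic superoxide dismutase, was at 476 against 878 CPM (-0.84, -1.69 to -0.18). Targets of p53 had 7 UMIs in all, none of them in the 11 cells over 50%, where 3 UMIs would come to 257 CPM, against 411 CPM in other cells. The unfolded protein response of the endoplasmic reticulum (-0.25, -0.54 to 0.02) and regulators of apoptosis (-0.37, -0.79 to 0.02) had intervals that included 0. Immediate early genes, the first to answer a stimulus, had 0.48 (0.02 to 0.91), and -0.65 against the other cells of like depth.

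Over the whole class, genes for transcribing ribosomal RNA and assembling ribosomes had summed ratios of about the size of those of ribosomal proteins and glycolysis. In the cells over 50% their ratios were less low than those of ribosomal proteins and glycolysis. The polymerase I list had medians of 1677 against 1755 CPM and a summed ratio of -0.27 (-0.71 to 0.12, and -0.15 over 50%), with 2 of 15 measured genes at least 2-fold higher and 5 lower. Polr1d, a subunit that polymerases I and III share, was at 312 CPM in both classes. Factors that process ribosomal RNA and assemble ribosomes had medians of 8401 and 11065 CPM and a summed ratio of -0.22 (-0.38 to -0.06, and -0.49 over 50%), with 1 of 40 higher and 5 lower. Ncl, the nucleolar protein nucleolin, was at 2319 against 2362 CPM (-0.02, -0.37 to 0.29), while Npm1, nucleophosmin, was at 1174 against 2327 CPM (-0.97, -1.45 to -0.52). The RNA exosome and related 3′ processing factors were at -0.01 (-0.42 to 0.33, and -0.77 over 50%), with none of 18 higher and 3 lower. Over all measured genes 14.6% were at least 2-fold higher and 21% lower. The part that was lower was above that 21% in the polymerase I list and below it in the assembly and exosome lists.

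Clustered histone genes, most of whose messenger RNAs end without a poly(A) tail, were higher as a share. Over 22 genes they summed to 0 to 8149 CPM in dominated cells (median 1758) and to 0 to 3643 CPM in others (median 669), and 5 dominated cells were above every other cell. The summed ratio was 1.48 (1.09 to 1.82), from 66.02 UMIs in all, and it was 0.73 at 5 h, 3.16 at 10 h and 2.70 at 15 h. In the cells over 50% it was 2.13. Of 5 measured members 3 were at least 2-fold higher and none lower. Hist1h1e, a linker histone, was at 396 against 34.2 CPM (3.58, 2.57 to 4.30), and Hist1h2ap, a core histone, at 447 against 254 CPM (0.87, -0.03 to 1.54). S phase genes had a ratio of -0.23 (-0.47 to -0.02) and G2 and M phase genes -0.29 (-0.56 to -0.04), with 5 of 38 and 3 of 35 at least 2-fold higher and 7 of each lower, against 14.6% and 21% of all measured genes. Clustered histones share sequence among copies, so single members are uncertain.

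The identity of the dominated cells was checked with markers. T-lineage and leukocyte genes, which C1498 cells of this series carry, were at 1575 against 2582 CPM (-0.70, -1.13 to -0.32), and at 599 CPM in the cells over 50%. Coro1a, an actin regulator of leukocytes, had 29 UMIs in 4 cells (862 against 985 CPM), and Cd3e, a T cell receptor component, 1 UMI. Members of this list went both ways. With each single cell left out, Slfn2 was higher (log2 ratio 0.35 to 1.58) and Laptm5 lower (-2.52 to -1.28). All 9 myeloid markers were at 0 in dominated cells, Lyz2, Elane and Spi1 among them, and 7 of the 9 were at 0 in other heated cells as well. All 7 markers of natural killer and cytotoxic cells and all 6 of B cells were also at 0 in dominated cells. Of 7 erythroid and platelet markers, Hba-a1 and Hba-a2, the near-identical alpha globin genes, had 1.5 UMIs each in 3 dominated cells (44.6 against 2.67 CPM each), with the other 5 at 0. Of 6 fibroblast and endothelial markers, Pecam1 had 1 UMI and the others none.

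Lrrc17, a leucine-rich repeat protein was singled out after its values were seen. It stood at 0 to 668259 CPM in dominated cells (median 18493) and at 0 to 38329 CPM in others (median 949). At 10 h the 7 dominated cells held 5124, 18493, 62410, 141521, 142153, 163333 and 668259 CPM, and 5 of them were above every one of the 45 other cells, which reached 23516 CPM (median 1242). At 5 h the 6 dominated cells held 0 to 32170 CPM (median 2698), within the range of the others. At 15 h they held 0 and 892 CPM, below the median of 2239 CPM. The summed log2 ratio was 0.40 at 5 h, 5.87 at 10 h and -2.08 at 15 h. In pooled sums it was 2.77 (2.69 to 2.86), and 1.71 without cell 10h_7. That cell alone held 638 Lrrc17 UMIs of 955 without Rn45s, so every other gene's share there is taken of the same sum. In UMIs per cell the classes had like medians, 21 and 22.

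Across all heated cells of these times, sorted into bins by Rn45s share, the same RNAs were ordered below the 30% limit too. The bins are made from Rn45s itself. An RNA with a steady number of UMIs per Rn45s UMI must then rise from bin to bin, so the order is a description only. Mir6236 was at 488 CPM in the 8 cells of 2 to 5% Rn45s, 1833 in 65 cells of 5 to 10%, 2659 in the cells of 10 to 20% and 4004 in 19 cells of 20 to 30%, before 25222 in the dominated cells. Lars2 was at 211.4, 381, 801 and 1059 CPM in these bins before 10404, and Malat1 at 590, 682, 942 and 1878 before 3359. The order was not particular to these RNAs: Hsp90ab1 was at 6384, 9677, 10783 and 13871 CPM before 15859. The heat shock chaperone list also rose in every bin, from 25474 CPM in the lowest to 40932 CPM in the dominated cells. Ribosomal proteins showed no such order, at 237068, 250952, 253515 and 242302 CPM before 210484. Actb was at 8567, 8769, 9816 and 9477 CPM before 6312. The lowest bin held no 5 h cell and that of 10 to 20% only 12 cells from 10 h and 9 from 15 h, so bins and times are mixed.

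Set against only the 11 other heated cells of like depth (3174 to 9102 UMIs without Rn45s), the contrasts below kept their direction except where stated. The dominated cells were still less deep by median (1171 against 6064). Mir6236 had a log2 ratio of 3.08, Lars2 3.55, Rpph1 3.77 and Malat1 1.23 in this comparison. The polymerase III list was at 1.77 and the clustered histones at 1.55. CCT genes were at -0.45, the respiratory chain at -0.32 and ribosomal proteins at -0.14. Further ratios that moved by over 1.5 times were those of Snora81 (4.74), Rmrp (2.09), Vaultrc5 (2.83), Hist1h1e (2.66), Piezo1 (1.59), Cct2 (-1.64), Tcf7 (-1.64), Impdh2 (-1.90) and Npm1 (-0.25). Direction changed for Ncl, which turned to 0.58, for the ribosome assembly list (0.15) and for immediate early genes (-0.65). Depth differed between the classes at every time, and its part in these contrasts beyond this comparison was not tested.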

How the data were processed

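The deposited table holds molecular barcode (UMI) counts of 24781 genes in 360 single cells, given by the authors as estimated counts, since 5.30% of the values above 0 are not whole numbers. Reads were handled with STAR and mm10, per the submitters' processing notes. For the counting program, the annotation and any filter, the sources used here give no name. Spike-in RNAs and mitochondrially encoded genes are not analysed here. The sequence of 1 of the RNAs named is not reported here. Every column matched the label of 1 cell. Cells were picked singly and no doublet caller was run.

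Cells were grouped by labelled temperature and time, and the heated cells of 5, 10 and 15 h were split at an Rn45s share of 30% of the column sum. UMIs of the other genes were summed over each class, as deposited, and divided by the sum without Rn45s. Log2 ratios have 0.5 UMI added to each sum. Their 95% intervals are exact conditional binomial (Clopper-Pearson) intervals on rounded sums and cover counting error only, as do the intervals of shares and the limit of 3 counts for a count of 0. PCR and capture add error that they leave out. UMIs per cell ran from 1060 to 13813 in dominated cells. No test across cells was made, since the cells of a class are 1 sample and were chosen by a measured value. The interval script was tested on simulated data.

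Genes with at least 20 CPM over all cells were counted as higher or lower at 2-fold. Named genes had at least 50 CPM, an interval without 0, and 1 sign at each time (with the added 0.5 UMI, which alone gave the sign where a gene had none) and with each cell left out, up to 12 per direction, with the largest and smallest ratio and the most abundant members of each list. The dominated cells, lists and rules were chosen with earlier results of these data known. Alternatives were other limits for the Rn45s share, filters, added counts, denominators, cell weights, comparison cells and cells left out. Values came from Python 3.11.15 with numpy 2.4.6, scipy 1.17.1, pandas 2.3.3 and matplotlib 3.10.9.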

Additional observations from a re-analysis of the deposited data

Results flagged for a closer look

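Rpph1 in cell 5h_86 stood at 11889 CPM, against 1882 CPM in the next of the 6 dominated cells at 5 h. Rpph1 in cell 10h_46 stood at 23141 CPM, against 5731 CPM in the next of the 7 dominated cells at 10 h, and rested on 7 UMIs. Lrrc17 in cell 10h_7 stood at 668259 CPM, against 163333 CPM in the next. These 3 were set off because the gap to the nearest cell was large for the range of their group, among 26 pairs of a group and a measure that were examined. Chance alone sets off about 1 in 20 groups. Lrrc17 also differed between times: the median of the dominated minus that of the other cells was 140279 CPM at 10 h and -1793 CPM at 15 h, with all 7 dominated cells above the other median at 10 h and both below it at 15 h. That difference between the times was not tested.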

How the results depend on the processing

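No paired analysis was possible because the replicate numbers only count the cells picked in a group. The noncoding share, at a log2 ratio of 2.24 in all, was 0.50 with the limit for Rn45s at 20%, 2.76 at 40%, 3.32 at 50%, 2.51 with cells weighted equally, 1.04 as a share of the sum with Rn45s, 1.499 against the other cells of like depth and 2.37 with other cells weighted by time. At 5 h, main value 2.12, the first 6 of these gave 0.49, 2.83, 3.98, 2.62, 1.32 and 1.696. At 10 h it was 1.87 at 20% and 0.52 with Rn45s in the sum, and at 15 h 0.34 at 20%, 2.71 with equal weights and 0.60 with Rn45s in the sum. Leaving out 1 dominated cell gave 1.696 to 2.59 in all, 1.32 to 2.58 at 5 h, 2.32 to 2.65 at 10 h and 2.93 to 3.33 at 15 h. Its direction was the same under each of these.

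Counts of genes depended on the settings. Genes at least 2-fold higher (877, 14.6% of those tested) made up 1.18% at the 20% limit, 22.2% at 50%, 52.97% with no filter (7279 genes), 3.92% at 100 CPM, 2.03% at 300 CPM (10 genes), 43.7% with 2 counts added, 1.05% with Rn45s in the sum and 22.1% against like depth. Genes at least 2-fold lower (1260, 20.97%) made up 1.75% at the 20% limit, 32.9% with equal weights, 22.9% at 100 CPM (408 genes), 17.1% at 300 CPM (84 genes), 2.10% with 2 counts added and 62.1% with Rn45s in the sum. With 1 cell left out these shares ran from 14.1 to 18.2% and from 19.005 to 22.7%. The share of dominated cells at 5 h was 9.42% at 20% and 0.897% at 50%. The difference in median genes seen, -85 at 1000 UMIs, was 3 at 2000, where 4 of the 5 dominated cells kept were under 50%.

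Log2 ratios changed sign as follows. At the 20% limit Tcf7 was 0.031, Ikzf1 0.10, Npm1 0.029, Cacybp 0.022, Chac1 -0.40, Cd3e 0.034, the ribosome assembly list 0.15 and immediate early genes -0.046. Neat1 was -1.07 at 40% and -0.23 at 50%. The chaperones were -0.34 at 40%, -0.48 at 50%, -0.27 with equal weights, where Cacybp was 0.0026, and -0.95 with Rn45s in the sum. In that sum Hsp90ab1 was -0.62, Hsp90aa1 -0.57, Jund -0.16, Rpl36 -0.55, Rpsa -0.56, nuclear RNAs -0.21 and immediate early genes -0.72. Against like depth the assembly list was 0.15 and immediate early genes -0.65. Without cell 5h_194 Chordc1 was -0.029 (range over cells left out -0.029 to 1.93) and the chaperones -0.33 (-0.33 to 0.36). The cause of these changes was not tested. The 50% limit and 300 CPM filter were chosen after seeing the data. The class holds 33641 UMIs without Rn45s, so genes under 89.2 CPM there are at or below 3 UMIs.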
